A study of Rattus norvegicus with 6 samples.

Results

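The complement genes C1qb, C1qc, C3 and Serping1, 4 of the 4736 genes that the array annotation names, were described in the whole hippocampus of Syracuse High Avoidance (SHA) and Syracuse Low Avoidance (SLA) rats. The members were every probe set of the array whose annotation names exactly 1 gene, that gene being one of the 4, which gave 8 of the 8799 probe sets. The lines carry the name of the behaviour by which they differ, the learning of two-way active avoidance. In this task, crossing the box in time after the signal spares the rat the shock. SHA and SLA rats had all been tested in that task, and tissue was taken 2 weeks later. Hippocampi of 3 rats were pooled for each array, and there were 3 such pools of SHA and 3 of SLA rats, so n = 3 pools per line. No untested rats were measured, so line differences that were there before testing and effects of testing cannot be told apart. The genes were taken up because their SHA and SLA values had been seen to differ in these same arrays. Their line differences are therefore given as a description, with standard errors and without a test.

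Complement is a cascade of blood and tissue proteins that tags particles for uptake and drives inflammation. C1q, built from A, B and C chains, is the recognition unit of the classical pathway, and with the proteases C1r and C1s it forms the C1 complex. Cleavage of C3 is the step on which the pathways meet. Serping1 encodes the C1 inhibitor, a serine protease inhibitor that inactivates C1r and C1s and also acts on contact-system proteases. In the brain, microglia are the main source of C1q, C1q and C3 take part in synapse removal during development, and C3 is also made by reactive astrocytes.

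Serping1, C3 and one probe set of C1qb read lower in each of the 3 SHA pools than in any of the 3 SLA pools. On the fitted log2 scale the level was 4.04-fold lower in SHA for Serping1, 2.85-fold lower for C3 on X52477_at and 1.53-fold lower for C1qb on X71127_at. The brightest C1qc probe set and the second C1qb probe set had lower means in SHA, but their SHA and SLA ranges overlapped. In all, 4 of the 8 probe sets had every SHA pool below every SLA pool, counting both C3 probe sets. Over all probe sets other than array controls this held for 3.3%, and over those bright enough to be fitted for 3.65%. Nothing is read from that contrast, since these genes were chosen by it. Values are scaled intensities of the authors, and intensities of different probe sets are not comparable as levels of different genes. In bulk tissue, fewer cells of a type and less RNA per cell cannot be told apart.

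**Figure D1:**
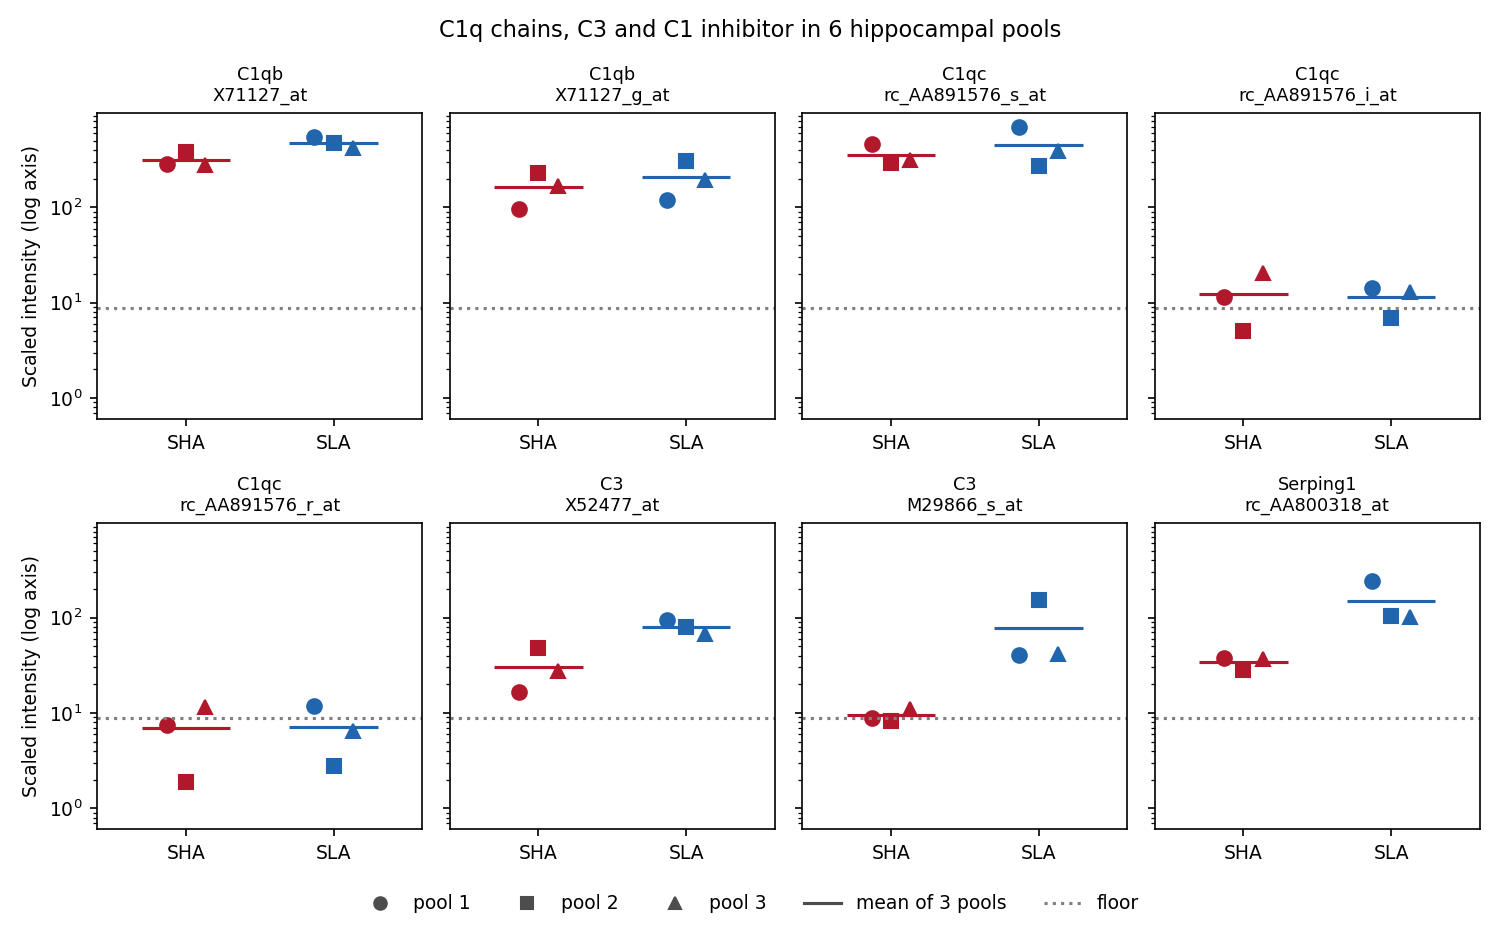
Scaled intensity (log axis) of the 8 probe sets of C1qb, C1qc, C3 and Serping1 in the 3 SHA and 3 SLA pools. Marker shapes give the pool number, bars the mean of 3 pools and the dotted line the floor of 8.9. The SHA points lie wholly below the SLA points for X71127_at, both C3 probe sets and rc_AA800318_at.

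For 2 of the 4 genes the reference table of promoters (RefSeq, assembly GRCr8) held a sequence. The C1qb and C3 windows, of 300 bases each, are shown because probe sets of these genes separated the lines. They run from 250 bases before the annotated transcript start to 50 after it. Capitals mark matches, on either strand, to TTGCNNAA (a C/EBP core) or GAGGAA (a PU.1 core), which do not overlap one another here.
C1qb promoter, chr5:154407778-154408077, minus strand: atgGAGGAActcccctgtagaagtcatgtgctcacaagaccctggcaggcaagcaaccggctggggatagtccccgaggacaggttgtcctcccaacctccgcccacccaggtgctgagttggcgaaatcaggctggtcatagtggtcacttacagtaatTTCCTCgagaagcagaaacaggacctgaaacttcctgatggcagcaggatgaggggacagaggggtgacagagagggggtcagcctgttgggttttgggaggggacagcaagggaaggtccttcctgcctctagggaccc
C3 promoter, chr9:2201290-2201589, minus strand: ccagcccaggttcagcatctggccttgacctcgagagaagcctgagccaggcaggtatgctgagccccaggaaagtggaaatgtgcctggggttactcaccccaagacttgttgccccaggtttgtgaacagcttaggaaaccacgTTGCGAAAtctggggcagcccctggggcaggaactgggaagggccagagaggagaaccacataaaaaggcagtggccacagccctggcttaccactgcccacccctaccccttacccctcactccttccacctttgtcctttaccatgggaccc
The C3 window held 1 C/EBP match, at bases -104 to -97 from the start (TTGCGAAA), and none to the PU.1 letters. The C1qb window held PU.1 matches at -247 to -242 and, on the other strand, at -90 to -85, and no C/EBP match. Of 33469 promoter windows of this length, 10.6% held the C/EBP letters and 27.6% the PU.1 letters. The interferon-response letters GAAANNGAA (9.71% of windows) and the TATA letters TATAAA (14.2%) had no match in either window. These matches describe letters only, and binding was not measured.

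C1qb encodes the B chain of C1q. Its probe set X71127_at read 287.7, 381.3 and 276.5 in SHA pools 1, 2 and 3, against 546.4, 468.9 and 420.8 in SLA pools 1, 2 and 3. The highest SHA pool, number 2, lay below the lowest SLA pool, number 3. The means were 315 ± 57.5 in SHA and 479 ± 63.4 in SLA (SD, n = 3 each), a log2 difference, SHA minus SLA, of -0.61 ± 0.26 (standard error). The second probe set designed from the same transcript, X71127_g_at, read 97.1, 228.1 and 166.4 in SHA pools, against 120.8, 308.0 and 193.1 in SLA pools. Here the lines overlapped, and the pools numbered 1 were the dimmest and those numbered 2 the brightest in both lines. This second difference was -0.32 ± 0.45, and it rested on single pools. Leaving out SHA pool 1 gave 0.014, and leaving out SLA pool 2 gave 0.016. When SHA pool 2 was dropped it was -0.60, and when SLA pool 1 was dropped -0.66. Between pools of the same number it was -0.32, -0.43 and -0.21, lower in SHA each time. Between pools of the same number X71127_at differed by -0.93, -0.30 and -0.61.

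C1qc encodes the C chain, and lies next to C1qb on chromosome 5 of the GRCr8 assembly, with C1qa, the A chain gene, as the next one along. Its probe set rc_AA891576_s_at, of a kind that may be shared with similar sequences, read 464.4, 291.9 and 312.7 in SHA pools, against 699.2, 274.7 and 386.7 in SLA pools. SLA pool 1 was the highest and SLA pool 2 the lowest of the 6, so the SHA pools lay inside the SLA range. The means were 356 ± 94.2 in SHA and 454 ± 220.0 in SLA, a log2 difference of -0.27 ± 0.37. Between pools of the same number the difference was -0.59, 0.09 and -0.31. SLA pool 1 set the sign, as the difference was 0.10 without it. Leaving out SHA pool 1 gave -0.48, leaving out SHA pool 2 gave -0.14 and leaving out SLA pool 2 gave -0.58. The difference was -0.13 with array weights, -0.05 with weights and pool number blocked, and -0.11 when both pools numbered 1 were dropped. The same clone is read by rc_AA891576_i_at and rc_AA891576_r_at, sets for which the array's design rules were relaxed. They read 5.1 to 20.5 in SHA pools against 6.9 to 14.2 in SLA pools, and 1.9 to 11.6 against 2.8 to 11.9. Both were among the dimmest 25% of probe sets and were left out of the fit, with 1 and 2 pools of each line at or under the floor of 8.9.

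C3 was read by probe sets designed from 2 sequence records. X52477_at read 16.6, 47.6 and 27.6 in SHA pools, against 94.0, 79.0 and 68.2 in SLA pools. The lines did not overlap, and SHA pool 2, the brightest of its line, came closest to the SLA pools. The means were 30.6 ± 15.7 in SHA and 80.4 ± 13.0 in SLA, a log2 difference of -1.51 ± 0.58. Between pools of the same number it was -2.50, -0.73 and -1.31. M29866_s_at read 8.9, 8.3 and 11.1 in SHA pools, against 40.7, 154.4 and 41.1 in SLA pools. All 3 SHA pools were thus near or under the floor, and SLA pool 2 stood well above the other SLA pools. Its means were 9.43 ± 1.47 in SHA and 78.7 ± 65.5 in SLA. Because of its low SHA values it fell among the dimmest 25% and entered the fit only under other settings, at -2.73 ± 0.61 with no filter and at -1.30 ± 0.60 with the floor raised to the 25th percentile. The size of that difference therefore depends on the floor. SLA pool 1 was the highest pool on X52477_at and the lowest SLA pool on M29866_s_at, so the probe sets agreed on the line order and not on the order of pools within SLA.

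Serping1, on chromosome 3 of GRCr8, was read by a single probe set, rc_AA800318_at. It read 37.7, 28.3 and 37.0 in SHA pools, against 242.9, 104.7 and 102.4 in SLA pools. The SHA pools lay close together, SLA pool 1 was far above the other SLA pools, and no pool was at the floor. The means were 34.3 ± 5.24 in SHA and 150 ± 80.5 in SLA, a log2 difference of -2.01 ± 0.51. Between pools of the same number the difference was -2.69, -1.89 and -1.47, and without SLA pool 1 it was -1.60 ± 0.54. No other probe set of the array names Serping1 alone.

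**Figure D2:**
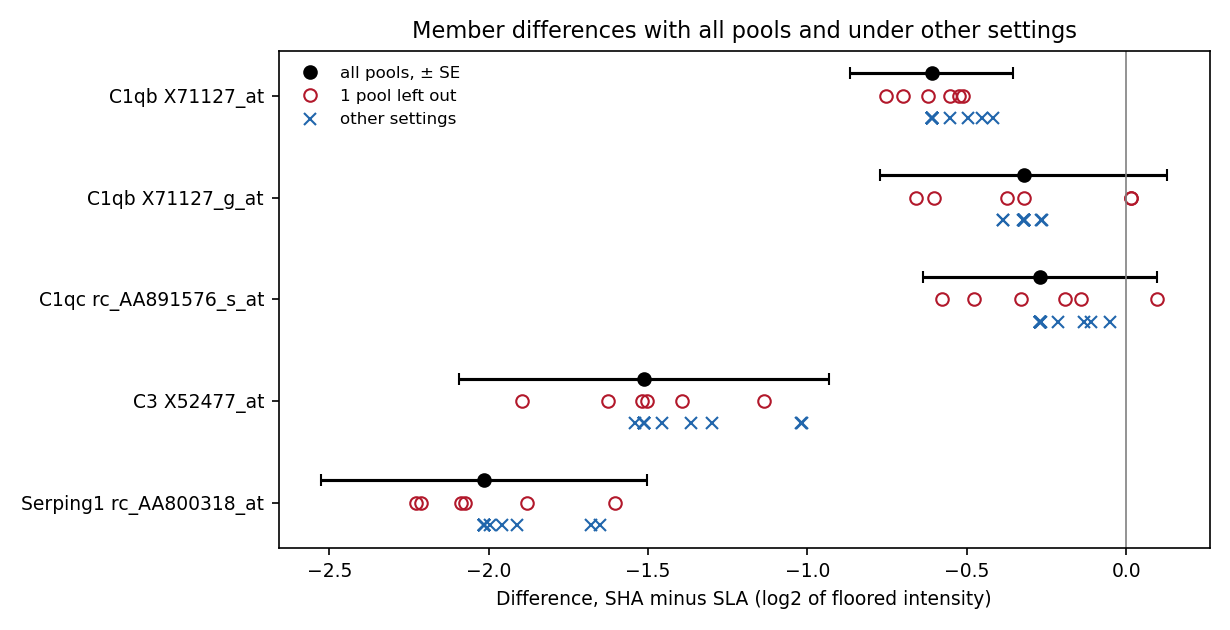
Difference, SHA minus SLA, on the log2 scale for the 5 probe sets bright enough to be fitted. Black points with bars give the value with all pools ± standard error, open circles the values with 1 pool left out and crosses the other settings. Serping1 stays between -2.23 and -1.60 and C3 between -1.90 and -1.02, while C1qc and X71127_g_at of C1qb reach 0.10 and 0.016.

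The fitted member probe sets differed over the 6 pools both in the size of the line difference and in the order of pools. Likeness was measured as the root mean square distance between log2 values, each probe set centred on its own mean. The values were not scaled, so the distance holds the size of a difference as well as the shape over pools. Among the 5 fitted probe sets the smallest distance was 0.48, between X71127_at of C1qb and C1qc, and the largest 1.24, between X71127_g_at of C1qb and Serping1. The C1qb probe sets stood 0.56 apart, about as far as X71127_at stood from C3, also 0.56. In line difference X71127_at (-0.61) was nearer to X71127_g_at (-0.32) than to C3 (-1.51), so these equal distances do not mean equally unlike shapes. C3 and Serping1 were 0.68 apart.

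For each member the 3 nearest genes were named out of 5377 probe sets with 1 gene symbol. RT1-CE12, an MHC class I gene, was nearest to C1qb, at a distance of 0.10, with 452.7, 547.1 and 471.3 in SHA pools against 793.4, 790.3 and 683.1 in SLA pools. Nudc and Il1rap followed at 0.11 and 0.12. Flt1, a VEGF receptor of endothelium, was nearest to C1qc at 0.06, followed by Akirin2 at 0.08 and Kxd1 at 0.10. Syk, a tyrosine kinase of immune receptor signalling, was nearest to C3 at 0.22, with 30.1, 72.6 and 33.7 in SHA pools against 161.1, 96.2 and 95.7 in SLA pools. Grk3 and Irgm2 both followed at 0.26. RT1-Da, an MHC class II chain, was nearest to Serping1 at 0.41 on M15562_g_at. That probe set read 26.5, 48.8 and 46.2 in SHA pools against 295.2, 161.5 and 128.0 in SLA pools. The brighter RT1-Da probe set, M15562_at, read 55.4, 29.5 and 98.4 in SHA pools against 282.2, 108.8 and 88.3 in SLA pools. There the lines overlapped, with a difference of -1.36 ± 0.61. Apoa2 and Tgfbr1 followed RT1-Da at 0.44. Median distances over all 5377 probe sets were 0.58 for C1qb, 0.66 for C1qc, 0.99 for C3 and 1.17 for Serping1. With 6 pools and this many candidates, these distances are a description only.

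**Figure D3:**
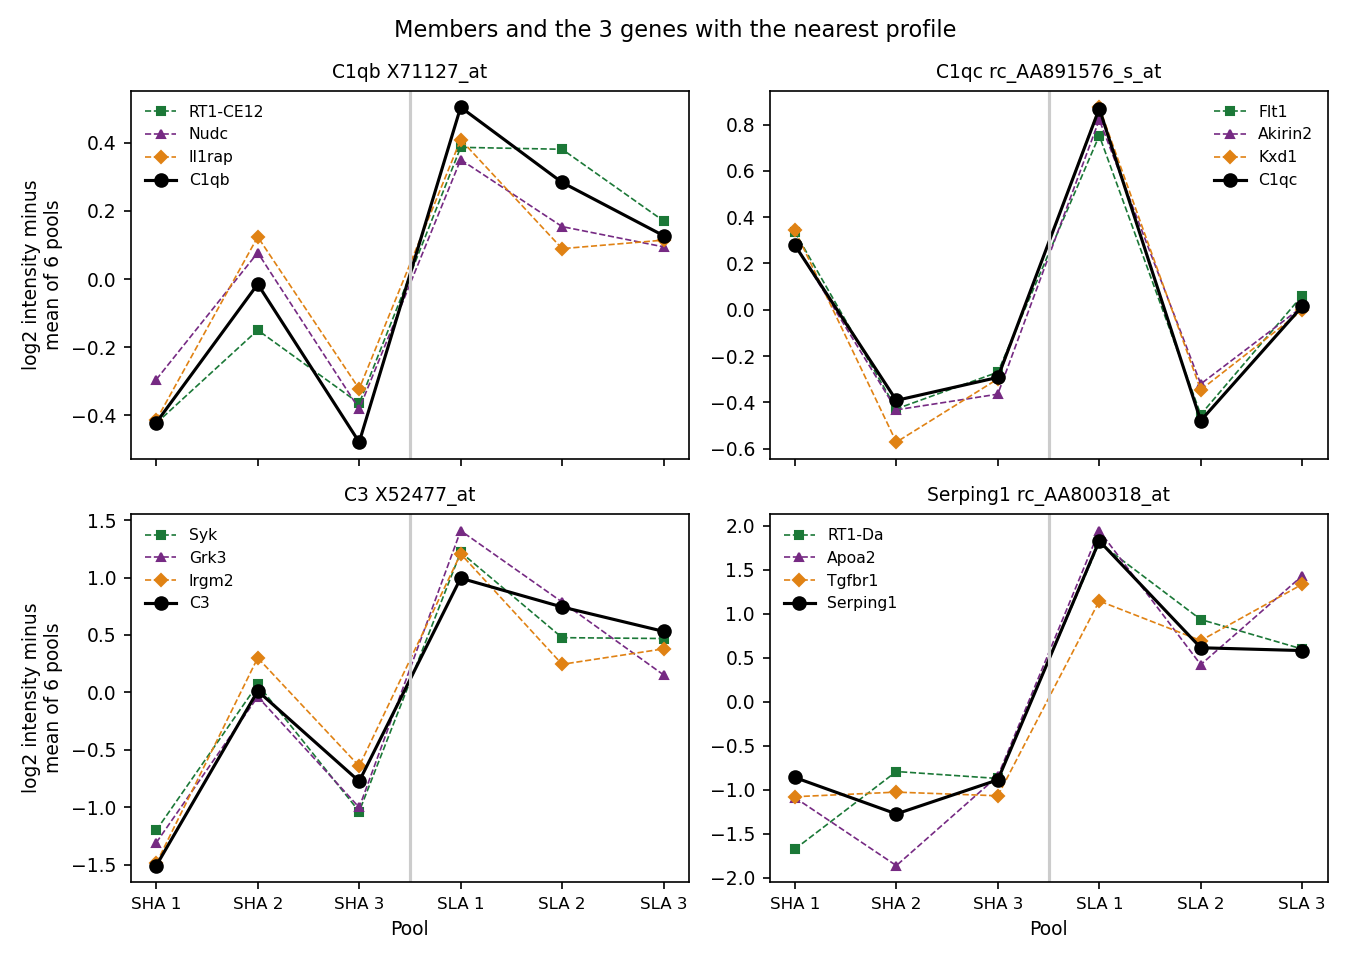
Log2 intensity minus the mean of 6 pools, by pool, for the brightest probe set of C1qb, C1qc, C3 and Serping1 (black) and its 3 nearest genes (dashed). SLA pool 1 is the highest of the 6 pools for each of the 4 black lines, and C1qc falls below its mean in SLA pool 2.

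The remaining complement genes were taken as a list of 46, of which 21 had a probe set with 1 gene symbol and 12 were bright enough to be fitted. None reached an adjusted p under 0.05 in limma, and 0 had an unadjusted p under 0.05. Over all 6555 fitted probe sets, 0% passed after adjustment and 1.5% had an unadjusted p under 0.05, or 98 in number, which became 345 with the pool number as a block. Of the 12 genes, 9 had a lower and 3 a higher mean in SHA, with a median log2 difference of -0.22 beside -0.01 over all fitted probe sets, of which 51.9% had a lower mean in SHA. Leaving out SHA pool 2 gave a median of 0.034, leaving out SLA pool 1 gave 0.0028 and leaving out SLA pool 2 gave -0.42.

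Among the classical and lectin pathway genes, C1s was singled out after its values were seen. C1s, the protease that C1 inhibitor blocks, read 5.0, 9.4 and 7.8 in SHA pools, against 30.6, 30.8 and 45.8 in SLA pools. The lines did not overlap, but 2 SHA pools were under the floor and the probe set fell among the dimmest 25%. With no filter its difference was -1.95 ± 0.26, with an unadjusted p of 3.1e-04 and an adjusted p of 0.94 in limma. C1r, its partner protease, read 13.2, 63.8 and 53.4 in SHA pools, against 44.3, 91.3 and 52.2 in SLA pools, with overlap and a difference of -0.74 ± 0.72. Masp1, a protease of the lectin pathway, differed by 0.09 ± 0.28. The lectins Mbl1 and Mbl2 had pools at or under the floor in both lines on each of their probe sets and were not fitted.

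In the alternative and terminal pathway, properdin, Cfp, differed by -0.21 ± 0.39 and C8b, a chain of the membrane attack complex, by 0.33 ± 0.92. Cfd and C9 were too dim to be fitted, at 21.0 ± 8.28 in SHA against 29.6 ± 16.6 in SLA for Cfd. C9 read 10.8, 2.2 and 59.7 in SHA pools, against 25.5, 24.8 and 11.3 in SLA pools.

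Of 7 fitted regulators other than Serping1, 6 were lower in mean and none passed. Cr1l, the rodent membrane regulator Crry, read 212.3, 209.6 and 188.0 in SHA pools, against 365.7, 236.0 and 200.0 in SLA pools on D42116_s_at, a difference of -0.35 ± 0.31. Its second probe set, L36532_s_at, had every SHA pool below every SLA pool, at 129 ± 7.92 against 177 ± 31.9 and -0.44 ± 0.33. Cd59b, which blocks the membrane attack complex, differed by -0.31 ± 0.29 and Clu, clusterin, by -0.20 ± 0.34. Vtn, vitronectin, differed by -0.51 ± 0.58, C4bpb by -0.53 ± 0.81, Cd55 by -0.24 ± 0.65 and C1qbp, a mitochondrial protein named for binding C1q, by 0.30 ± 0.36. C4bpa and Cd46 were too dim to be fitted. Of the receptors, C5ar1 differed by -0.11 ± 0.33, while C3ar1 and Itgam, a chain of complement receptor 3, were too dim.

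**Figure D4:**
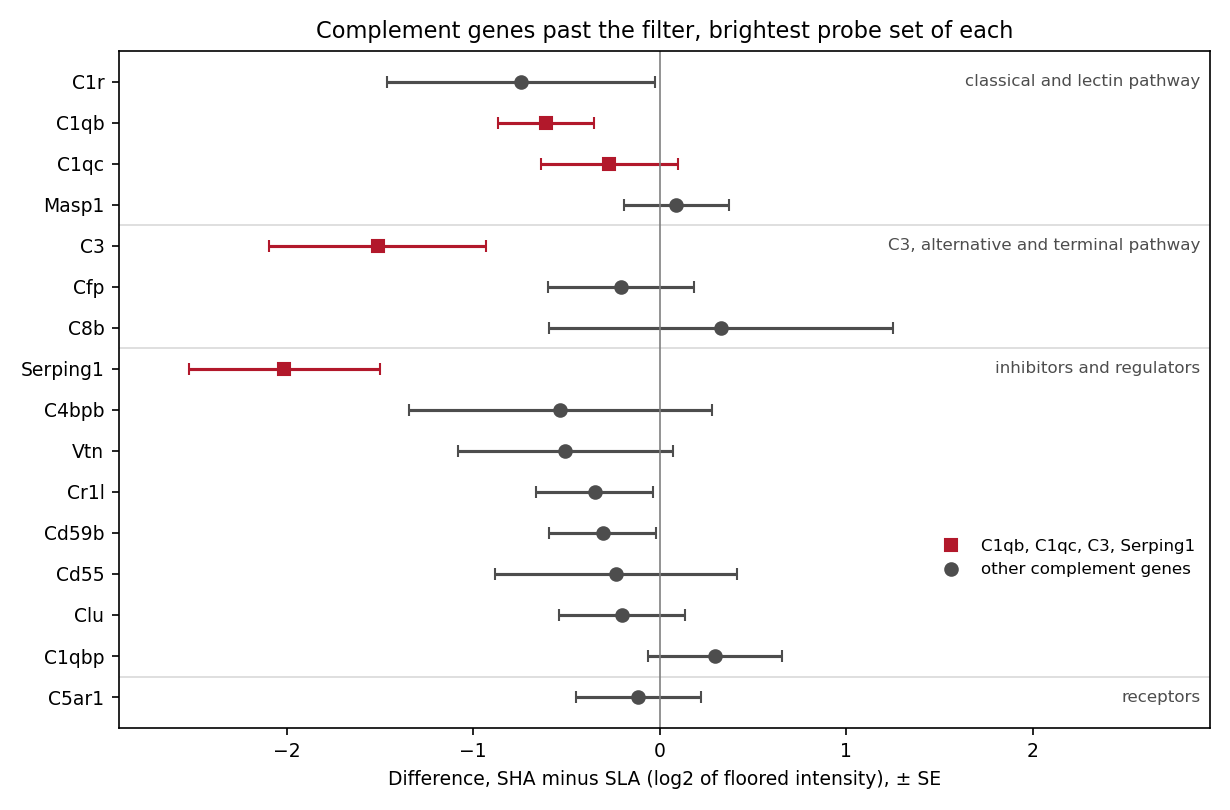
Difference, SHA minus SLA, on the log2 scale ± standard error for the complement genes bright enough to be fitted, with the brightest probe set of each gene, grouped by role. The 4 genes described here are squares, and of these only Serping1 and C3 have a difference of more than 1 below 0.

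Other targets and relatives of the C1 inhibitor were read in the same fit. Of 4 fitted genes of the contact system and fibrinolysis, 3 had a lower mean in SHA, among them Kng2, a kininogen, at -0.85 ± 0.50 and Plat, tissue plasminogen activator, at -0.42 ± 0.47, while Bdkrb1, a bradykinin receptor, differed by 0.13 ± 0.54. Of 7 fitted serpins other than Serping1, 4 were lower and 3 higher in mean, with Serpina1 at -0.79 ± 0.62, Serpinh1 at -0.85 ± 0.70, Serpina6 at 0.56 ± 0.82 and Serpine2 at 0.20 ± 0.28. Serping1 and C3 are interferon-inducible in many cells. Of 13 fitted interferon-responsive genes, 7 were lower and 6 higher in mean, with a median of -0.16. Mx2 read 64.1, 97.0 and 39.5 in SHA pools, against 160.8, 122.4 and 131.8 in SLA pools (-1.13 ± 0.45), and Psme1 differed by -0.53 ± 0.29. In the other direction, Stat2 read 100.3, 132.8 and 203.9 in SHA pools against 57.9, 85.8 and 91.8 in SLA pools (0.86 ± 0.43), and Psmb9 differed by 0.48 ± 0.60. None of these genes passed the threshold after adjustment.

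Most fitted markers of microglia, the main source of C1q in brain, also had lower means in SHA. Of 12 fitted microglia and macrophage markers, 11 had a lower mean in SHA, with a median of -0.41. Over all fitted probe sets 51.9% had a lower mean in SHA. None had an unadjusted p under 0.05 in limma. Only 1, Fcgr2b at -0.71 ± 0.60, had every SHA pool below every SLA pool, which held for 3.65% of all fitted probe sets. The intensities of the 14 markers on the array summed to 2581 to 3352 in SHA pools and 3431 to 4559 in SLA pools, without overlap. Leaving out Ctss, cathepsin S, the brightest, the sums were 957 to 1173 in SHA pools and 1322 to 1375 in SLA pools. Such a separation was not particular to this list. Sums of the other complement genes overlapped with Clu, their brightest, but not without it, at 2766 to 3033 in SHA pools and 3327 to 3431 in SLA pools. Of the defining markers, Aif1 differed by -0.31 ± 0.46, Cx3cr1 by -0.39 ± 0.50 and P2ry12 by -0.40 ± 0.41, each with overlapping lines. Csf1r and Itgam were too dim to be fitted. Csf1r, the receptor for the microglial growth factor CSF1, ran the other way, at 67.5, 15.9 and 42.8 in SHA pools, against 39.0, 10.4 and 11.8 in SLA pools. The lines overlapped, and it was higher in SHA between pools of each number. Ctss differed by -0.56 ± 0.29 and Cd4 by 0.04 ± 0.37. Lgals3, galectin-3, read 5.8, 6.2 and 48.7 in SHA pools, against 65.7, 58.8 and 26.2 in SLA pools, so the lines overlapped. Its difference of -1.57 ± 0.86 depends on the floor, which 2 SHA pools were under. Medians of the microglial list between pools numbered 1, 2 and 3 were -0.25, -0.48 and -0.31. The part of these markers in the C1q, C3 and Serping1 differences was not tested.

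Antigen-presentation genes, which microglia and vessel-associated macrophages express, had 13 of 15 lower and a median of -0.40. Unlike the microglial list, 5 of the 15 had an unadjusted p under 0.05 in limma, against 1.5% of all fitted probe sets. Every SHA pool lay below every SLA pool for 5, against 3.65%. None passed after adjustment, and the list was chosen with earlier results of these data known. Their summed intensities were 4094 to 4217 in SHA pools and 5542 to 6474 in SLA pools. Leaving out B2m, the brightest, the sums were 2672 to 3564 in SHA pools and 4380 to 5596 in SLA pools. Such sums weigh bright probe sets most, and the MHC class I probe sets among them may be shared with similar sequences. In that list Cd74 differed by -2.67 ± 0.76 and RT1-A by -0.81 ± 0.22, against Psmb8 at 0.22 ± 0.55. The lines did not overlap for Cd74, but its SHA mean of 15.6 ± 6.77 (SD) was not far above the floor of 8.9. Its SLA pools read 257.8, 59.5 and 54.4, so SLA pool 1 stood far above the other SLA pools. The size of the Cd74 difference is therefore uncertain. Meningeal and fibroblast markers, cells in which Serping1 is also made, had 12 of 16 lower, a median of -0.24 and overlapping sums of 2943 to 3487 in SHA pools and 3211 to 4128 in SLA pools. Ptgds differed there by -0.46 ± 0.32, Fn1 by -0.40 ± 0.29, Col3a1 by 0.60 ± 0.74 and Col5a1 by 0.08 ± 0.29. Endothelial markers had 6 of 9 lower and a median of -0.16, with Icam1 at -0.38 ± 0.36, Flt1 at -0.24 ± 0.39, Kdr at 0.31 ± 0.66 and Slco1a4 at 0.15 ± 0.29. Astrocyte markers were split 6 to 6 with a median of -0.01, Vim at -1.10 ± 0.35 and Aldh1l1 at -0.49 ± 0.35 on one side and Slc1a3 at 0.45 ± 0.26 and Aldoc at 0.28 ± 0.29 on the other.

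Choroid plexus markers had 4 of 6 lower, with Ttr at 0.21 ± 0.44, Ace at 0.18 ± 0.31, Enpp2 at -0.18 ± 0.29 and Sostdc1 at -0.88 ± 0.58. Blood cell transcripts had 4 of 7 lower, with Slc4a1 at -0.40 ± 0.39, Cd3g at -0.23 ± 0.71, Cd79b at 1.19 ± 0.63 and Cd8b at 0.21 ± 0.50. The labelled tissue was checked against 19 neuronal genes, among them Nrgn, Camk2a and Neurod2, and none had a pool at the floor. So low a bar cannot tell hippocampus from other neuronal tissue. Of the 19 neuronal genes, 15 were higher in mean in SHA, with a median of 0.27, and their sums overlapped between lines. Gria2 differed by 0.54 ± 0.27, Cck by 0.41 ± 0.22, Grin2a by -0.15 ± 0.31 and Syp by -0.08 ± 0.24. The 3' to 5' log2 difference of the Gapdh control is a sign of RNA integrity. It was 0.07, 0.20 and 0.33 in SHA pools 1, 2 and 3, and -0.02, 0.09 and 0.43 in SLA pools. It thus rose with the pool number in both lines.

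**Figure D5:**
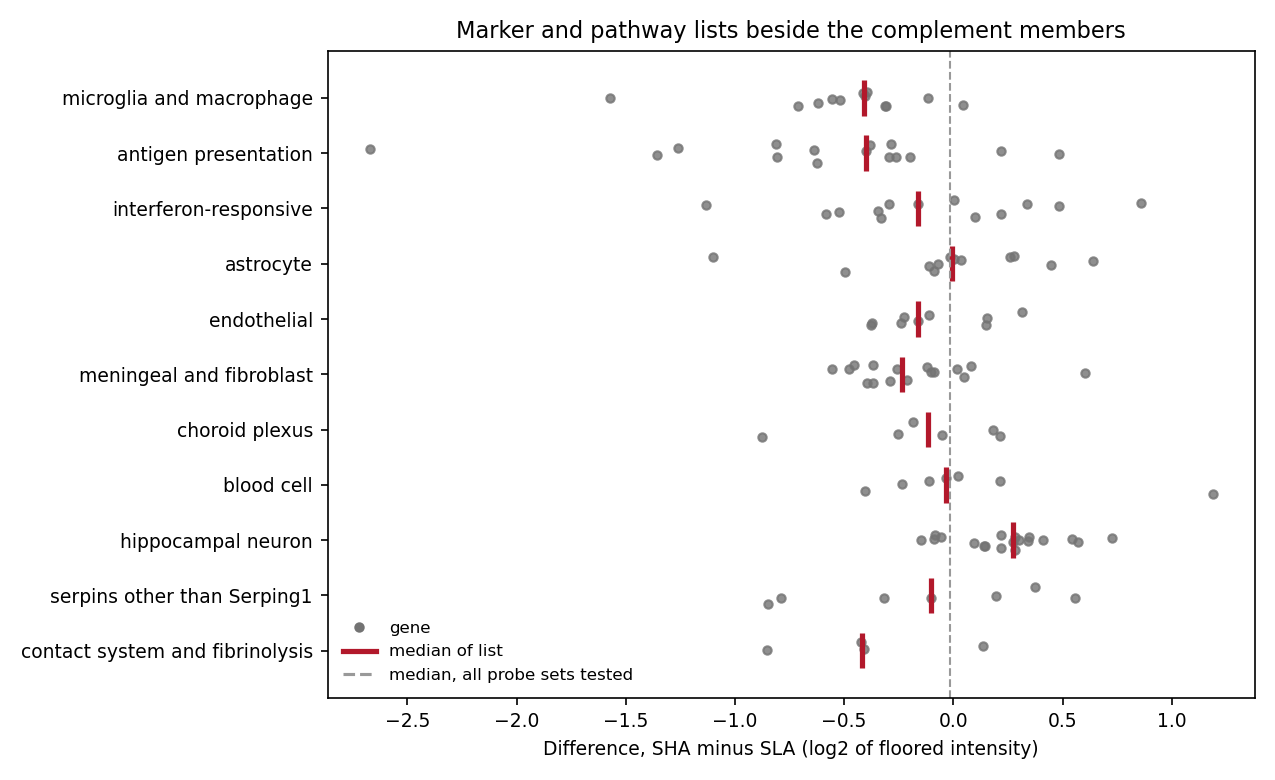
Difference, SHA minus SLA, on the log2 scale of each fitted gene (points) in marker and pathway lists, without the 4 complement genes described here. Bars are list medians and the dashed line is the median of all fitted probe sets, -0.01. The microglial and antigen-presentation medians lie at -0.41 and -0.40 and the neuronal median at 0.27.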

How the data were processed

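The authors deposited 1 linear, scaled intensity per probe set and array. The 2%-trimmed mean lay between 250.3 and 250.4 on all 6 arrays, so an overall shift between lines cannot be measured. The software and its scaling target were not given in the sources used, and detection calls were not used. The number of arrays limits the precision. Without 59 controls, 8740 probe sets remained. Values were floored at the 10th percentile (8.9), log2 was taken, and the 25% with the lowest mean was left out, leaving 6555 probe sets, 5 of the 8 members among them.

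Single symbols of the platform annotation were matched by gene number to GRCr8 (6985 of 7006). Differences between lines were fitted in R 4.3.3 by limma 3.58.1 (intensity trend, two-sided, Benjamini-Hochberg over all fitted probe sets), after a check on simulated data. The gene lists hold 246 genes, 160 of them on the array, and took the brightest probe set per gene. Members and lists were chosen with earlier results of these data known.

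Named were all member probe sets, the other complement genes on the array, per further list the 2 genes of smallest p in each direction, and the 3 nearest profiles. Aif1, Cx3cr1, P2ry12, Csf1r, Fcgr2b and the neuronal genes of the tissue check were chosen after their values were seen. RT1-Da as a nearest profile is probe set M15562_g_at.

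Pools are numbered 1 to 3 within each line, and the labels give the numbers no meaning. After removal of line means, pools with a common number correlated at 0.44, 0.68 and 0.13 in the order 1 to 3. On that ground alone the numbers were treated as pairs in the differences between pools of the same number and in the block. The main fit held the line only, so its standard errors and p-values are unpaired. The labels list the pools as separate samples, and the p-values rest on the spread between pools within lines. Arrays correlated at r between 0.779 and 0.963, so none duplicated another. Alternatives were other normalizations, filters, floors and variance models, array weights, the block and left-out pools.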

Additional observations from a re-analysis of the deposited data

How the results depend on the processing

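The 5 fitted member probe sets gave 88 values under the other normalizations, filters, floors, variance models, array weights, blocking and pools left out, of which 85 kept their sign and moved by less than the spread within lines. Filters, variance models and the block alone cannot change such a difference, so part of those 85 was fixed in advance. The 3 that changed sign came from pools left out, where X71127_g_at of C1qb ranged from -0.66 to 0.016 and C1qc from -0.58 to 0.10. Leaving out 1 pool gave -2.23 to -1.60 for Serping1, -1.90 to -1.14 for C3 and -0.75 to -0.51 for X71127_at of C1qb. The count of 4 probe sets with all SHA pools below all SLA pools held under the normalizations, filters, floors and left-out pools run. The filters play no part in that count, however, and leaving out a pool cannot end a separation. With the pool number as a block (the replicate block) the member differences were the same by construction, at -2.01 ± 0.42 for Serping1 and -1.51 ± 0.53 for C3, and no complement gene passed. With block and array weights together Serping1 differed by -1.91 and C3 by -1.02, and 12 of all probe sets passed.

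The other complement genes had 1 with an unadjusted p under 0.05 with no filter (C1s) and 1 with block and array weights (Cd59b), against 0 otherwise, and their median ranged from -0.42 to 0.034 with 1 pool left out. Over all probe sets the 98 at an unadjusted p under 0.05 became 203 with no filter, 63 with the dimmest 50% left out, 354 with array weights, 345 with the block, 871 with block and weights, and 62, 152, 152 and 57 when SHA pool 1, SHA pool 2, SLA pool 2 or SLA pool 3 was left out. The cause of these shifts was not tested. Low signal limits M29866_s_at of C3, C1s and the dim C1qc probe sets.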
